A study of Homo sapiens with 27 samples.

Results

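SUM159 cells that carried the dCas9-KRAB lentiviral vector with no targeting gRNA were compared with untransduced SUM159 wild type cells of the same sequencing run. The comparison rests on 6 of the 27 libraries of the series, 3 of No gRNA and 3 of wild type, chosen by their sample labels. SUM159 is a triple negative breast cancer line of the claudin-low, mesenchymal kind. The No gRNA cells had been transduced with pLV dCas9-KRAB, a single lentiviral vector made in HEK293T cells, and were selected from 4 days later with puromycin at 1.25 µg/mL, whereas the wild type cells carried no vector. Both were grown in F12 medium with 10% serum, insulin at 5 µg/mL and hydrocortisone at 1 µg/mL. The methods describe the replicates as individual clones. Transduction, dCas9-KRAB, puromycin resistance and puromycin selection differ together between the 2 groups and cannot be told apart. The same vector was also compared with wild type in MDA-MB-231, another claudin-low line, grown in high-glucose DMEM with serum. Its vector cells were selected with puromycin at 0.75 µg/mL. Those 6 libraries were sequenced in run 2 and share none with SUM159.

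dCas9-KRAB is a Cas9 that no longer cuts, fused to a Krüppel associated box. The box binds the corepressor KAP1 (TRIM28), which brings histone methylation and deacetylation to the site that a gRNA chooses, and with no gRNA the fusion has no programmed site. Lentiviral particles and their nucleic acids can be sensed by innate receptors, which induce interferon-stimulated genes, and mesenchymal breast cancer cells are known for high output of NF-kB cytokines and EGF family ligands.

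The 6 libraries held 17114434 to 21473757 estimated counts. Replicates of a group correlated across genes at 0.983 to 0.988 on the log2 CPM scale (CPM, counts scaled to library size with TMM factors). They differed by more than sampling noise, which cannot show whether they were independent cultures. Each was counted as its own sample because its label calls it a biological replicate. Of the markers of claudin-low cells, VIM stood at 3163 to 3316 CPM in wild type and 3718 to 3972 CPM in No gRNA, and the epithelial cadherin CDH1 was at or under 0.0296 CPM in all 6. All 5 listed markers that are high in claudin-low cells held enough counts to be tested, as did 5 of the 10 that are low in them. By limma's moderated test against 0, VIM, CD44 and ERBB2 were higher in No gRNA and GATA3 was lower, ERBB2 and GATA3 being listed as low. Another 3 libraries of wild type SUM159 cells are labelled run 2, and these stood apart from the wild type of run 1. By TREAT, 551 genes were higher and 449 lower in run 2. Their titles do not say whether they came from the same cultures. Sequencing run and any difference between the cultures cannot be told apart there, so levels or counts against wild type of run 2 are given beside most results.

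Changes were called by limma's TREAT test, which asks for a change beyond 1 on the log2 scale, at a Benjamini-Hochberg adjusted p under 0.05, and list members were counted by limma's moderated test against 0 on the same fit. Of 15147 genes tested, TREAT called 157 higher (1.04%) and 74 lower (0.489%) in No gRNA, and the median log2 fold change over all genes was 0.02. With the wild type libraries of both runs as the control TREAT called 74 genes, of which 97.3% were higher, against 68% of the 231. That fit had no term for run, so the gap between the wild types added to its spread. A call lost there need not mean that No gRNA lay within the wild type levels. The moderated test called 3188 genes higher (21.0%) and 3310 lower (21.9%), which is the background against which each list is read. The 3 No gRNA libraries lay above all 3 wild type libraries for 27.5% of genes and below them for 26.6%. All 231 genes called by TREAT were separated in this way, 213 of them protein-coding and 13 long noncoding RNAs.

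**Figure D1:**
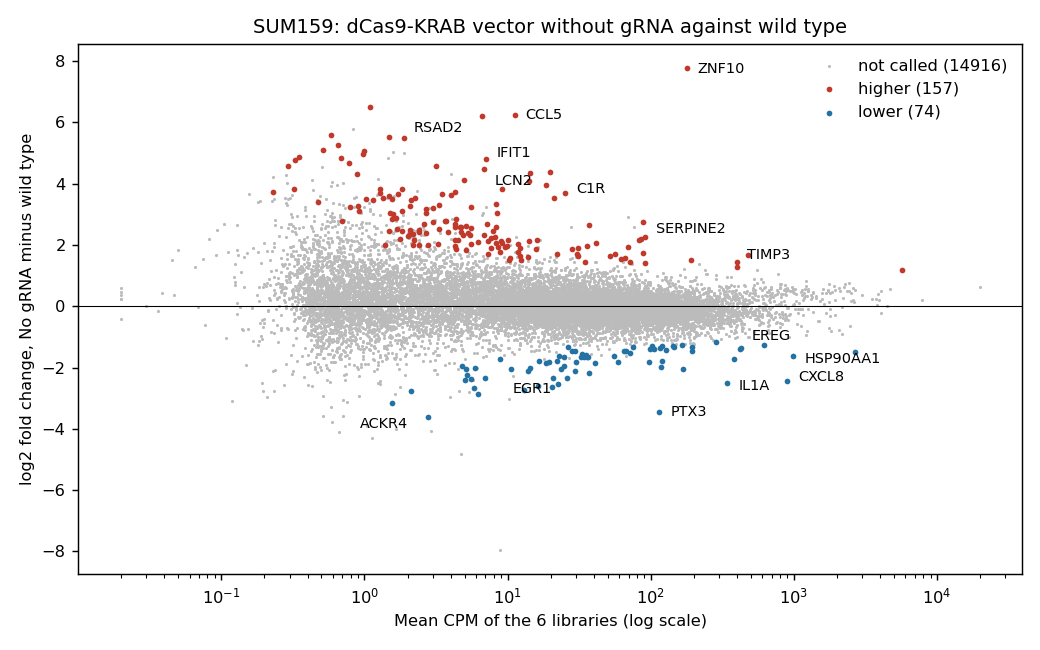
Log2 fold change of No gRNA against wild type (vertical axis) by mean CPM of the 6 libraries (log axis), 1 point per gene, in red for the 157 genes higher and in blue for the 74 lower by TREAT. ZNF10 stands at 7.77, the cytokine genes IL1A and CXCL8 are at -2.51 and -2.45, and most genes lie near 0.

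The largest change that TREAT called was that of ZNF10 (ENSG00000256223, GRCh38 chromosome 12 from 133130575 to 133159465, plus strand), the zinc finger gene from which the KRAB domain of most dCas9-KRAB fusions was taken. Its level was 1.25, 1.45 and 2.22 CPM in the 3 wild type libraries and 352, 368 and 342 CPM in No gRNA. The groups do not overlap, and the log2 fold change was 7.77 ± 0.19 (SE, TREAT adjusted p = 1.66e-09). The gRNA 4 and All gRNA libraries of SUM159 held 247 and 293 CPM on average, wild type of run 2 held 1.09 to 2.25 CPM, and MDA-MB-231 went from 1.87 to 281 CPM. Counts per gene do not show where on ZNF10 the reads lay. The first 225 coding bases of its canonical GENCODE transcript, the 75 codons at the amino-terminal end where the KRAB box lies, are shown because reads from the vector's KRAB part would be assigned here. They lie in 3 exons at chr12:133144493-133144525, chr12:133151028-133151154 and chr12:133151809-133151873 on the plus strand of GRCh38, with the start codon in capitals.
ZNF10: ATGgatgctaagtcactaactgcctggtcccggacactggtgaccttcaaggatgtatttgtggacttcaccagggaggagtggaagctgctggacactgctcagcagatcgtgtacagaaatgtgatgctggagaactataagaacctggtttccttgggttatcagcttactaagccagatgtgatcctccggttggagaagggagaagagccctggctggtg

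ZEB1, the gene the gRNAs of the study target, held 83.6, 75.7 and 78.8 CPM in wild type and 70.4, 77.3 and 73.2 CPM in No gRNA, which overlap (log2 fold change -0.12 ± 0.09 SE, moderated adjusted p = 0.313). With 3 libraries against 3, the two-sided exact permutation test cannot go below 0.1, and it gave 0.1 for ZNF10 and 0.2 for ZEB1.

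Interferon-stimulated genes, which block viral RNA, protein synthesis and budding, were higher in No gRNA. Of 48 list members tested, 33 rose and 2 fell by the moderated test, 11 rose and none fell by TREAT, and the median log2 fold change was 1.01. In 34 of the 48 the No gRNA libraries lay above all wild type libraries, against 27.5% of all genes. Sequences of 3 leading members that rose and of OAS3, the member that fell most, are shown first, from the RefSeq promoters of GRCh38.p14 (250 bases before to 50 after the gene start, table matched by symbol), with matches to the interferon response motif GAAANNGAA, on either strand, in capitals.
RSAD2: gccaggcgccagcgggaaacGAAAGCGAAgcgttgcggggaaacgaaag
IFIT1: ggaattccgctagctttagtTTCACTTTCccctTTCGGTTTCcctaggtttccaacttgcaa
HERC5: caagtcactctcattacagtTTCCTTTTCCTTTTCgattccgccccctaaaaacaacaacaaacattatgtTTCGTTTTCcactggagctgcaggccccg
OAS3: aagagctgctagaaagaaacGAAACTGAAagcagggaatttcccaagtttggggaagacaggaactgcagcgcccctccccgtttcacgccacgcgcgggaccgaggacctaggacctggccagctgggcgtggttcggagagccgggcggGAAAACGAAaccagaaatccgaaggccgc

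The RSAD2 window is chr2:6865786-6865834, that of IFIT1 chr10:89392488-89392549, that of HERC5 chr4:88456975-88457074 and that of OAS3 chr12:112938311-112938490, all written on the plus strand, on which all 4 genes lie. IFIT1 and OAS3 held 2 matches each, HERC5 held 3, of which the first and second overlap, and RSAD2 held 1. A promoter was found for 37 of the 48 list members tested, and 24 of them held the motif (64.9%), against 8.29% of all 27305 promoters. Among members that rose, 18 of 27 promoters held it, and among the other members 6 of 10. A match is a string of letters and says nothing of binding, and OASL and CCL5 had no entry.

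RSAD2, which encodes viperin, an enzyme that stops viral RNA synthesis, held 0.0963, 0.0983 and 0.339 CPM in wild type and 10.8, 13.8 and 14.7 CPM in No gRNA (log2 fold change 6.22 ± 0.53 SE, TREAT adjusted p = 0.000116). IFIT1, which binds viral RNA that lacks the host cap methylation, held 0.545, 0.455 and 0.376 CPM in wild type and 13.6, 13.1 and 14.0 CPM in No gRNA (4.82 ± 0.22, TREAT adjusted p = 8.16e-07). OASL, a relative of the 2'-5' oligoadenylate synthetases that strengthens RIG-I signalling, held 2.12, 1.30 and 2.03 CPM against 35.4, 36.7 and 40.2 CPM (4.37 ± 0.18, TREAT adjusted p = 4.26e-07). In each of these genes every No gRNA library lay many fold above every wild type library. HERC5, the ligase that attaches ISG15 to new proteins, went from 0.136 to 0.440 CPM in wild type to 5.47 to 6.70 CPM in No gRNA (4.57 ± 0.37, TREAT adjusted p = 0.000121). CCL5, a chemokine that draws T cells and that both interferon regulatory factors and NF-kB can induce, held 0.174, 0.346 and 0.320 CPM in wild type and 23.0, 20.6 and 22.7 CPM in No gRNA (6.23 ± 0.28, TREAT adjusted p = 4.26e-07).

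These genes were as low in the other wild type libraries. In run 2, wild type held 0.0433 to 0.848 CPM of RSAD2, 0.470 to 0.810 CPM of IFIT1, 0.853 to 1.74 CPM of OASL and 0.244 to 0.381 CPM of CCL5. With wild type of run 2 as the control, 33 of 48 members were higher and 1 lower (23.5% and 22.8% of all genes), with a median of 0.83, and with the 6 wild type libraries of both runs as the control 27 were higher and none lower (7.34% and 5.25% of all genes). Leaving out any 1 of the 6 libraries left 30 to 34 members higher. The gRNA 4 and All gRNA cells, which carry the same vector with gRNAs, stood between: RSAD2 averaged 2.94 and 3.87 CPM there, IFIT1 5.60 and 7.12 CPM, and CCL5 7.61 and 12 CPM.

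The list did not move as 1. OAS3, which makes the second messenger of RNase L and whose promoter held the motif, fell from 63.0, 62.4 and 51.0 CPM to 32.4, 26.6 and 27.6 CPM (log2 fold change -1.04 ± 0.13 SE, moderated adjusted p = 7.85e-05), but wild type of run 2 was lower still at 19.3 to 22.6 CPM. GBP3, a guanylate binding protein, fell from 8.34, 4.30 and 5.52 CPM to 2.61, 2.29 and 4.40 CPM (-0.97 ± 0.35, moderated adjusted p = 0.0404); the groups overlap, and the call was lost with any 1 of 4 libraries left out. Of 23 nucleic acid sensors and retroviral restriction factors, 11 rose and 7 fell, none by TREAT, with a median of 0.06, and without No gRNA replicate 3 the 7 became 4. Against wild type of run 2, 15 were higher and 1 lower (median 0.47), and against both wild types 9 were higher and none lower. AIM2, a sensor of DNA in the cytosol, rose from 1.71 to 3.12 CPM in wild type to 5.41 to 6.83 CPM (1.38 ± 0.28, moderated adjusted p = 0.00215), and IFIH1, the RNA sensor MDA5, from 10.4 to 12.3 CPM to 19.6 to 20.4 CPM (0.81 ± 0.09, moderated adjusted p = 2.17e-05). CGAS, the DNA sensor ahead of STING, fell from 39.9, 44.9 and 42.6 CPM to 27.5, 29.1 and 26.4 CPM (-0.63 ± 0.08, moderated adjusted p = 9.12e-05), with wild type of run 2 at 16.9 to 18.1 CPM.

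**Figure D2:**
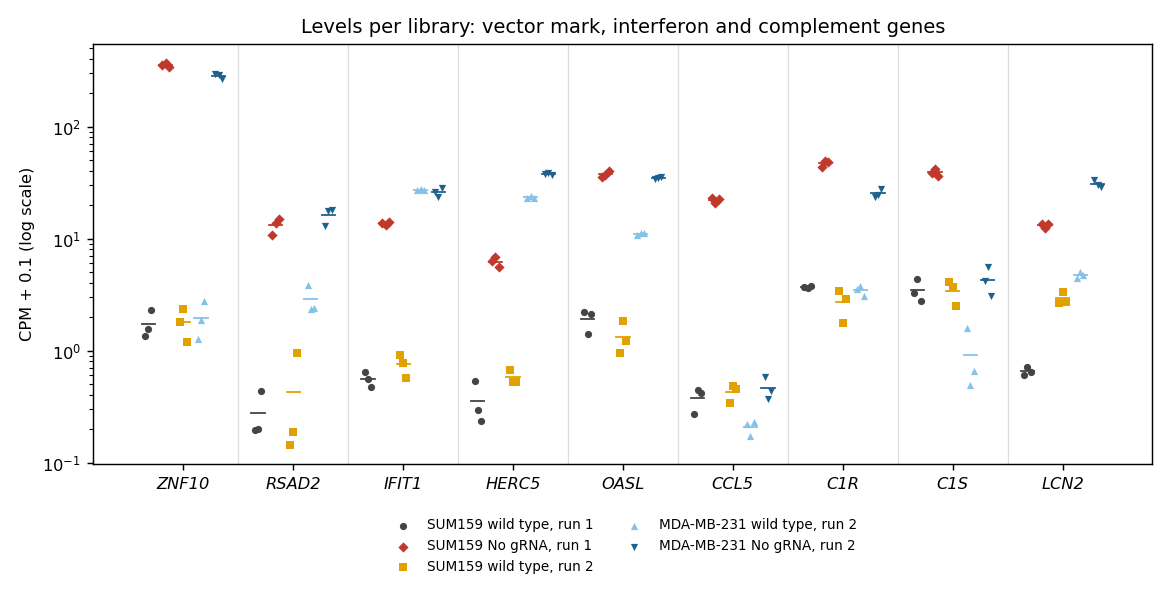
CPM per library with 0.1 added (log axis) for ZNF10, 5 interferon-linked genes, 2 complement genes and LCN2, in wild type and No gRNA of both lines and wild type SUM159 of run 2; points are the 3 libraries of a group and short lines their means. The SUM159 No gRNA libraries lie above both sets of SUM159 wild type libraries for all 9 genes, and IFIT1 does not separate the 2 MDA-MB-231 groups.

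Of 11 complement components tested, 7 rose and 1 fell by the moderated test and 3 rose by TREAT (median 0.45), and 8 were higher and 1 lower than in wild type of run 2. C1R and C1S, the serine proteases of the first complement complex, showed the clearest separation. C1R held 3.63, 3.51 and 3.70 CPM in wild type and 43.8, 49.1 and 48.1 CPM in No gRNA (log2 fold change 3.68 ± 0.13 SE, TREAT adjusted p = 1.69e-07). C1S held 3.19, 4.28 and 2.65 CPM and 38.7, 41.6 and 36.4 CPM (3.53 ± 0.18, TREAT adjusted p = 3.85e-06). Both stayed at that level with gRNAs, C1R at 39.8 and 37.1 CPM and C1S at 31.7 and 31.3 CPM, and wild type of run 2 held 1.65 to 3.34 and 2.38 to 4.03 CPM. CFB, factor B of the alternative pathway, went from 1.10 to 1.91 CPM to 6.61 to 11.2 CPM (2.32 ± 0.31, TREAT adjusted p = 0.0389), and C3, already abundant at 1935 to 2076 CPM, rose to 2758 to 3055 CPM (0.51 ± 0.05, moderated adjusted p = 1.34e-05). LCN2, SAA4, ORM1 and SERPINA3 belong to no complement list and were named as leading genes. LCN2, the iron-binding lipocalin of the acute phase, went from 0.501, 0.614 and 0.543 CPM to 13.3, 12.4 and 13.4 CPM (4.50 ± 0.21, TREAT adjusted p = 8.16e-07), with 2.57 to 3.26 CPM in wild type of run 2. SAA4, a serum amyloid A apolipoprotein, held 0, 0 and 0.401 CPM in wild type and 2.93, 3.02 and 2.54 CPM in No gRNA (5.53 ± 0.81, TREAT adjusted p = 0.00801). ORM1, the acid glycoprotein orosomucoid, was at or under 3 counts in each wild type library and at 1.11, 1.51 and 1.26 CPM in No gRNA, at least 8.82-fold higher. SERPINA3, antichymotrypsin, went from 1.12 to 1.59 CPM to 6.57 to 9.21 CPM (2.58 ± 0.26, TREAT adjusted p = 0.00471).

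Of 18 class I antigen presentation genes tested, 12 rose and 1 fell by the moderated test and 2 rose by TREAT (median 0.52). PSMB8, a subunit of the immunoproteasome, held 3.20, 3.67 and 3.24 CPM in wild type and 11.5, 11 and 11.2 CPM in No gRNA (log2 fold change 1.72 ± 0.11 SE, TREAT adjusted p = 0.00306), and HLA-C 4.45, 5.33 and 5.69 CPM and 16.2, 14.8 and 15.4 CPM (1.58 ± 0.13, TREAT adjusted p = 0.0336). The class I heavy chain genes are polymorphic and share sequence, so the split of reads between HLA-C and its relatives is uncertain. PSMB8 was at 9.87 to 11.8 CPM in wild type of run 2, as high as in No gRNA, and against that wild type 6 of the 18 members were higher and 2 lower. Of the ligands that tumour cells show to lymphocytes, 8 of 16 rose and 5 fell. CD274, which encodes PD-L1, fell from 34.3, 38.5 and 30.7 CPM to 7.60, 6.42 and 6.36 CPM (-2.35 ± 0.21, TREAT adjusted p = 0.0033), with 5.33 to 13.9 CPM in wild type of run 2.

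NF-kB targets and inflammatory cytokines went the other way. Of 26 tested, 3 rose and 19 fell by the moderated test, 2 rose and 8 fell by TREAT, and the median was -0.92. The members that rose were CCL5, LCN2 and, named after its value was seen, IL1RN, the interleukin 1 receptor antagonist, which went from 0 in each wild type library to 0.0354 to 0.637 CPM (moderated adjusted p = 0.0167). IL1A, interleukin 1 alpha, the alarm cytokine that starts the NF-kB response, held 580.0, 589 and 579.6 CPM in wild type and 105, 101 and 104 CPM in No gRNA (log2 fold change -2.51 ± 0.05 SE, TREAT adjusted p = 1.68e-08). CXCL8, the neutrophil chemokine interleukin 8, held 1501, 1530.0 and 1526 CPM and 291, 249.8 and 300.1 CPM (-2.45 ± 0.08, TREAT adjusted p = 4.26e-07). CCL20 held 35.3, 33.9 and 36.0 CPM and 5.10, 6.01 and 5.82 CPM (-2.64 ± 0.10, TREAT adjusted p = 1.14e-06). PTGS2, cyclooxygenase 2, held 8.58, 9.32 and 7.55 CPM and 1.37, 1.32 and 2.26 CPM (-2.39 ± 0.24, TREAT adjusted p = 0.00591). In all 4 the groups lay well apart.

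Wild type of run 2 did not share these high levels. IL1A was at 31.1 to 31.5 CPM there, CXCL8 at 118 to 122 CPM, CCL20 at 0.393 to 1.23 CPM and PTGS2 at 0.654 to 1.71 CPM, so No gRNA stood between the wild types for IL1A, CXCL8 and CCL20 and overlapped run 2 for PTGS2. Against wild type of run 2, 20 of the 26 members were higher and none lower (median 0.95), and against both wild types together 3 were higher and none lower. The direction of this list in SUM159 therefore depended on which wild type libraries served as the control. CCL20 was also at 35.0 CPM in gRNA 4 and 19.9 CPM in All gRNA cells, which were sequenced in run 1. In their promoters, 2 of 20 list members held the NF-kB motif GGGANTTCC on either strand (10.0%), against 1.86% of all promoters, and neither IL1A, CXCL8, CCL20 nor PTGS2 held it in this window. Only strings of this form were counted, so a promoter without a match may still hold an NF-kB site.

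Ligands and outputs of growth factor signalling were lower than in wild type of run 1. Of 12 ERBB receptors and EGF ligands tested, 2 rose and 7 fell (median -0.41), and 3 fell by TREAT. With run 2 as the control 4 were higher and 3 lower, and against both wild types 1 was higher and 2 lower. The 2 that rose were 0 to 1 with any 1 of 5 libraries left out, No gRNA replicate 3 being the exception. HBEGF, heparin-binding EGF, held 37.5, 38.8 and 39.2 CPM in wild type and 6.27, 7.80 and 6.13 CPM in No gRNA (log2 fold change -2.53 ± 0.12 SE, TREAT adjusted p = 9.17e-06), with 8.87 to 9.91 CPM in wild type of run 2. EREG, epiregulin, held 600.3, 619 and 609 CPM and 241, 238 and 246 CPM (-1.34 ± 0.05, TREAT adjusted p = 0.00116), and wild type of run 2 was lower still, at 211 to 223 CPM. EPGN, epigen, went from 7.40 to 12.4 CPM to 1.94 to 2.91 CPM (-2.01 ± 0.24, TREAT adjusted p = 0.0495), and wild type of run 2 overlapped No gRNA at 2.02 to 4.84 CPM. NRG1, the ligand of ERBB3 and ERBB4, went from 6.89 to 7.92 CPM to 1.39 to 2.01 CPM (-2.05 ± 0.30, moderated adjusted p = 0.000215, TREAT adjusted p = 0.117), and was at 5.98 to 9.40 CPM in wild type of run 2.

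Of 26 genes that report ERK activity, 2 rose and 14 fell (median -0.41), 4 of them by TREAT. EGR1, an immediate-early transcription factor, held 44.1, 41.5 and 44.1 CPM in wild type and 8.50, 7.45 and 9.60 CPM in No gRNA (log2 fold change -2.35 ± 0.11 SE, TREAT adjusted p = 1.91e-05). It is one of the genes for which both wild types were above No gRNA, with 52.9 to 56.8 CPM in run 2. DUSP6, the phosphatase that switches ERK off, held 45.8, 42.2 and 43.0 CPM and 15.3, 17.0 and 15.2 CPM (-1.47 ± 0.10, TREAT adjusted p = 0.0168), with 22.6 to 25.6 CPM in run 2. PHLDA1 went from 262 to 286 CPM to 62.8 to 69.7 CPM (-2.04 ± 0.06, TREAT adjusted p = 9.44e-07) and FOSL1, an AP-1 subunit, from 198 to 208 CPM to 78.9 to 84.5 CPM (-1.31 ± 0.05, TREAT adjusted p = 0.0038), with 57.4 to 58.7 and 97.8 to 105 CPM in run 2. In the gRNA 4 and All gRNA cells EGR1 averaged 41.4 and 43.2 CPM and DUSP6 36.6 and 45.9 CPM, near the wild type of run 1. Against wild type of run 2, 5 of the 26 were higher and 13 lower, and against both wild types 1 was higher and 9 lower. The AP-1 motif TGANTCA stood in 1 of 19 promoters of this list (5.3%) and in 7.76% of all promoters.

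Targets of YAP and TAZ, the coactivators that respond to adhesion and cell shape, fell in 13 of 19 cases with none higher (median -0.39), 3 of them by TREAT. CCN2, a secreted matrix protein, held 14.6, 13.0 and 13.4 CPM in wild type and 4.20, 3.81 and 4.52 CPM in No gRNA (log2 fold change -1.71 ± 0.12 SE, TREAT adjusted p = 0.00548), and 19.3 to 23.2 CPM in wild type of run 2. F3, tissue factor, went from 45.4 to 48.2 CPM to 12.8 to 14.3 CPM (-1.81 ± 0.09, TREAT adjusted p = 0.000186), a level that wild type of run 2 shared at 12.4 to 19.2 CPM. Against wild type of run 2, 5 of 20 members were higher and 9 lower, and against both wild types 4 were lower and none higher.

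**Figure D3:**
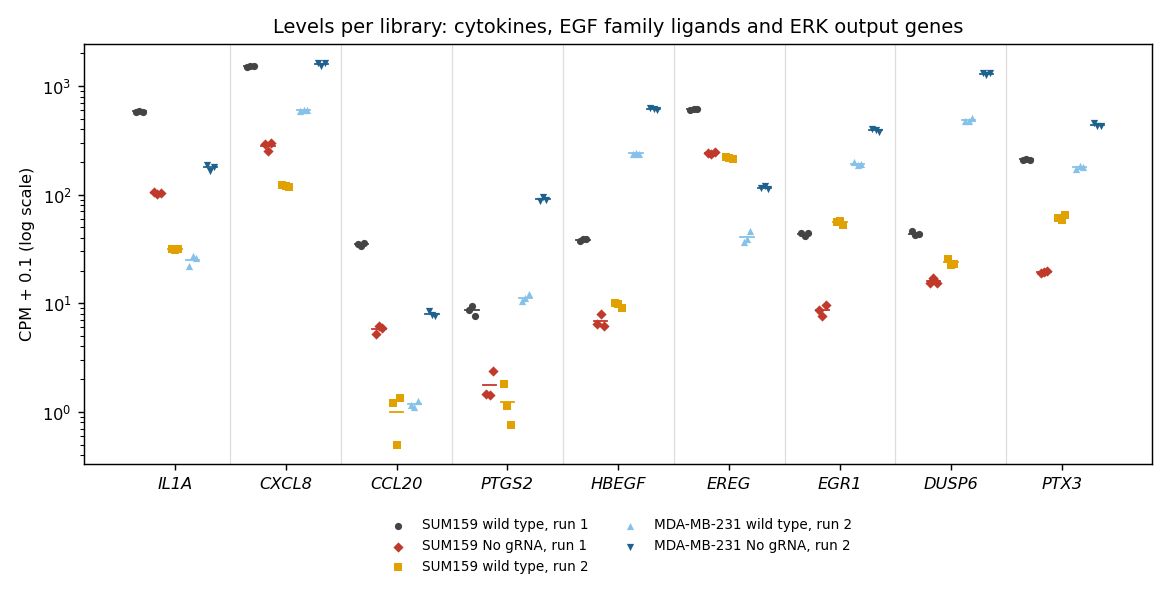
CPM per library with 0.1 added (log axis) for 4 cytokine genes, 2 EGF family ligands, 2 ERK output genes and PTX3, groups and marks as in the plot of the interferon genes. In SUM159 all 9 genes are lower in No gRNA than in wild type of run 1, wild type of run 2 lies above No gRNA for HBEGF, EGR1, DUSP6 and PTX3, and in MDA-MB-231 all 9 are higher in No gRNA.

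Genes of DNA replication and the G1/S transition fell: 30 of 37 tested were lower and 1 higher by the moderated test, 4 were lower by TREAT, and the median was -0.77. TYMS, which makes thymidylate, RRM2, a subunit of ribonucleotide reductase, and MCM4, part of the replicative helicase, were among the 4. TYMS held 110, 107 and 102 CPM in wild type and 35.1, 36.1 and 39.4 CPM in No gRNA (log2 fold change -1.54 ± 0.10 SE, TREAT adjusted p = 0.0126). RRM2 held 298, 279 and 271 CPM and 88.4, 111 and 113 CPM (-1.46 ± 0.09, TREAT adjusted p = 0.0117), and MCM4 232, 233 and 231 CPM and 101, 99.8 and 90.4 CPM (-1.27 ± 0.05, TREAT adjusted p = 0.0163). CCNE1, cyclin E1, was the member that rose (0.55, moderated adjusted p = 0.0193), a call lost without wild type replicate 3 or No gRNA replicate 2. Wild type of run 2 was below No gRNA for TYMS, at 18.0 to 23.6 CPM, overlapped it for RRM2, at 81.4 to 90.2 CPM, and was above it for MCM4, at 110.3 to 126 CPM, and against it 10 members were higher and 13 lower. The CCAAT box stood in 20 of 32 promoters of the list (62.5%) and in 35.7% of all promoters.

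Mitosis and G2/M genes changed less and in both directions, with 4 of 38 higher and 17 lower (median -0.20) and none past TREAT. FOXM1, the transcription factor of that phase, went from 200 to 212 CPM to 142 to 144 CPM (log2 fold change -0.55 ± 0.05 SE, moderated adjusted p = 4.75e-06), and MKI67, the Ki-67 antigen, from 397 to 450 CPM to 284 to 296 CPM (-0.54 ± 0.09, moderated adjusted p = 0.000489), while TOP2A rose from 702 to 753 CPM to 854 to 982 CPM (0.31 ± 0.06, moderated adjusted p = 0.00126). Wild type of run 2 was lower for all 3, at 70.2 to 82.5, 141 to 164 and 278 to 292 CPM, and against it 36 of the 38 were higher and none lower.

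Ribosomal protein genes rose together by small amounts: 73 of 78 tested were higher and none lower (median 0.49), none past TREAT. RPL13A held 1724, 1742 and 1855 CPM in wild type and 2912, 3031 and 3213 CPM in No gRNA (log2 fold change 0.77 ± 0.06 SE, moderated adjusted p = 1.22e-06). In run 2, wild type was higher again, at 3442 to 3584 CPM, and against it 16 members were higher and 47 lower. These genes have many processed copies, so single values are uncertain.

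Clock genes rose in 10 of 13 cases with none lower (median 1.05), 2 by TREAT. DBP, an output factor of the clock, held 0.652, 0.772 and 0.364 CPM in wild type and 6.97, 8.33 and 7.05 CPM in No gRNA (log2 fold change 3.63 ± 0.36 SE, TREAT adjusted p = 0.00121), with 2.29 to 3.08 CPM in wild type of run 2. PER3, a period repressor, went from 3.04 to 4.29 CPM to 15.6 to 17.5 CPM (2.15 ± 0.18, TREAT adjusted p = 0.0033), and wild type of run 2 was as high, at 13.3 to 25.5 CPM. CRY2, a cryptochrome, and HLF, a relative of DBP, rose by 1.29 and 1.24 (moderated adjusted p = 0.00213 and 0.000655), with 8.99 to 10.3 and 2.24 to 4.73 CPM in wild type of run 2. Against both wild types 9 members were higher and none lower.

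Of 31 genes of the unfolded protein and ATF4 responses, 11 rose and 13 fell (median -0.01), and against wild type of run 2, 9 were higher and 15 lower. HSPA5, the chaperone BiP of the endoplasmic reticulum, rose from 499, 500 and 508 CPM to 1034, 1058 and 1063 CPM (log2 fold change 1.06 ± 0.03 SE, moderated adjusted p = 8.45e-10). Against wild type of both runs its change was 0.58 and its call was lost (moderated adjusted p = 0.11). The ATF4 targets CHAC1, STC2 and SESN2 fell, CHAC1 from 75.6, 84.2 and 91.8 CPM to 28.9, 26.3 and 27 CPM (-1.62 ± 0.09, TREAT adjusted p = 0.00151), STC2 from 574 to 648 CPM to 204 to 252 CPM (-1.41 ± 0.07, TREAT adjusted p = 0.00638) and SESN2 from 142 to 149 CPM to 58.3 to 59.9 CPM (-1.31 ± 0.06, TREAT adjusted p = 0.0127). STC2 was at 526 to 561 CPM in wild type of run 2, whereas SESN2 was at 57.7 to 60.4 CPM there, the level of No gRNA. HSP90AA1, the stress-induced HSP90, fell from 1482, 1532 and 1465 CPM to 477, 494 and 493 CPM (-1.62 ± 0.04, TREAT adjusted p = 3.47e-06), and among 12 heat shock chaperones 2 rose and 5 fell. HMOX1, heme oxygenase 1, rose from 29.4 to 33.3 CPM to 138 to 146 CPM (2.18 ± 0.07, TREAT adjusted p = 8.82e-07), below the 383 to 391 CPM of wild type of run 2. Of 31 glycolysis and hypoxia genes 12 rose and 11 fell, and the members that TREAT called higher were CA9, carbonic anhydrase 9, from 0.218, 0.334 and 1.74 CPM to 9.90, 9.30 and 8.48 CPM (4.12 ± 0.56, TREAT adjusted p = 0.0076), and NDRG1, from 33.5 to 40.7 CPM to 100 to 108 CPM (1.45 ± 0.08, TREAT adjusted p = 0.00777). In wild type of run 2 CA9 was at 0.0736 to 0.827 CPM and NDRG1 at 43.9 to 46.3 CPM, both below No gRNA.

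Of 9 EMT transcription factors tested, 1 rose and 4 fell. FOXC2 held 93.2, 95.5 and 106 CPM in wild type and 34.6, 35.4 and 36.5 CPM in No gRNA (log2 fold change -1.47 ± 0.08 SE, TREAT adjusted p = 0.00355), and SNAI2, the factor SLUG, went from 104 to 111 CPM to 47.4 to 50.8 CPM (-1.14 ± 0.06, moderated adjusted p = 4.78e-08), with 25.9 to 28.0 CPM in wild type of run 2. ZEB2 went from 92.8 to 149 CPM to 48.8 to 60.0 CPM (moderated adjusted p = 0.00841), and SNAI1, SNAIL, rose from 1.46 to 2.30 CPM to 4.28 to 5.37 CPM (1.30, moderated adjusted p = 0.000169). Wild type of run 2 held 45.5 to 54.5 CPM of ZEB2, which overlaps No gRNA, and 5.74 to 6.14 CPM of SNAI1, above it. Of 21 epithelial junction genes 8 rose and 3 fell, F11R, the junction adhesion molecule JAM-A, by TREAT, from 0.289 to 0.877 CPM to 4.31 to 5.40 CPM (3.05 ± 0.34, TREAT adjusted p = 0.0048). It reached 33.6 and 32.4 CPM in the gRNA 4 and All gRNA cells. Keratins rose in 6 and fell in 5 of 14 cases, with KRT17 (3.67 ± 0.38, TREAT adjusted p = 0.00144), KRT5 (2.60 ± 0.37, TREAT adjusted p = 0.0414) and KRT6A (1.92 ± 0.22, TREAT adjusted p = 0.0498) higher, KRT17 from 0.177 to 0.346 CPM to 2.86 to 3.52 CPM, and KRT6A, whose reads may be shared with its close relatives, from 10.4 to 18.9 CPM to 43.0 to 52.8 CPM.

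Of 22 collagens 11 rose, 4 of them by TREAT, and 3 fell (median 0.39), the 3 being 1 without wild type replicate 1 or No gRNA replicate 1. Against wild type of run 2, 7 of 23 collagens were higher and 10 lower, and against both wild types 4 were higher and 2 lower. Of 26 mesenchymal matrix and cytoskeleton genes 12 rose and 4 fell, but against wild type of run 2 10 were higher and 10 lower. COL6A2, a chain of collagen VI, held 1.67, 1.22 and 0.723 CPM in wild type and 20.9, 17.1 and 13.3 CPM in No gRNA (log2 fold change 3.84 ± 0.38 SE, TREAT adjusted p = 0.00102), but 21.3 to 47.3 CPM in wild type of run 2, and COL6A1 went from 2.99 to 5.87 CPM to 14.6 to 16.7 CPM (1.96 ± 0.23, TREAT adjusted p = 0.0446), with 11.8 to 16.1 CPM in run 2. COL5A3 was at or under 3 counts in each wild type library and at 2.60, 5.07 and 3.36 CPM in No gRNA, at least 25.1-fold higher, with 2.79 to 3.69 CPM in wild type of run 2. TIMP3, an inhibitor of matrix metalloproteinases, held 217, 209 and 213 CPM and 583, 589 and 572 CPM (1.44 ± 0.04, TREAT adjusted p = 5.15e-05), and 11.1 to 13.0 CPM in wild type of run 2. SERPINE2, protease nexin 1, rose from 26.6, 32.5 and 35.4 CPM to 160.1, 146 and 146 CPM (2.26 ± 0.09, TREAT adjusted p = 4.01e-06), with 23.7 to 27.2 CPM in run 2. SERPINB3, a squamous cell serpin with a near-identical neighbour SERPINB4, was at 0 in each wild type library and at 0.50 to 0.864 CPM in No gRNA, at least 4.50-fold higher.

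Of 28 genes of the KAP1, SETDB1, HP1 and NuRD machinery, 2 rose and 10 fell (median -0.12) and none passed TREAT. Without No gRNA replicate 2 the 10 became 6, and against wild type of run 2, 9 were higher and 8 lower. DNMT1, the maintenance DNA methyltransferase, which also follows S phase, fell from 266 to 297 CPM to 117 to 122 CPM (log2 fold change -1.24 ± 0.07 SE, moderated adjusted p = 1.5e-07), with 123 to 155 CPM in wild type of run 2. Of 418 ZNF genes tested, 107 rose and 51 fell (median 0.19), beside 21.0% and 21.9% of all genes, and 4 rose by TREAT. Beside ZNF10 these were ZNF385B, ZNF117 and ZNF862. ZNF117 held 0.228 to 0.451 CPM in wild type and 2.48 to 4.00 CPM in No gRNA (3.11 ± 0.49, TREAT adjusted p = 0.0399) and was at 0.429 to 0.650 CPM in wild type of run 2, whereas ZNF862 (2.17 ± 0.22, TREAT adjusted p = 0.0093) and ZNF385B (3.32 ± 0.54, TREAT adjusted p = 0.0389) were as high in wild type of run 2 as in No gRNA, at 5.97 to 8.59 and 3.87 to 14.5 CPM.

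Markers of immune cells were checked beside the interferon and complement genes. CD3E, a defining marker of T cells, was at 0 in all 6 libraries, and PTPRC, the leukocyte antigen CD45, was at or under 0.127 CPM. CD14 and CD68, markers of macrophages that other cells also express, rose from 0.0399 to 0.218 CPM to 1.04 to 1.45 CPM and from 8.48 to 11.1 CPM to 16.1 to 19.0 CPM (moderated adjusted p = 0.00083 and 0.000205), with 0.998 to 1.78 and 28.0 to 31.8 CPM in wild type of run 2. Of 4 endothelial markers 2 were tested and neither passed.

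Other lists held few calls by TREAT. Their members were counted by the moderated test, by which 21.0% of all genes rose and 21.9% fell, and several lists lay near those shares. Of 21 p53 targets 3 rose and 9 fell (median -0.26), and of 32 genes of cholesterol and fatty acid synthesis 2 rose and 9 fell (median -0.12). NRF2 targets, the antioxidant genes to which HMOX1 belongs, rose in 13 and fell in 5 of 21 cases (median 0.25). Genes of the TGF-beta pathway rose in 5 and fell in 8 of 27 cases, and those of the WNT pathway rose in 2 of 19 with none lower. Clustered protocadherins rose in 6 of 14 with none lower (median 1.03), HOX genes rose in 7 and fell in 1 of 18, and integrins rose in 4 and fell in 6 of 17.

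The remaining genes with the largest rises were low in wild type. OLFM1, a secreted olfactomedin, had no count in the wild type libraries of either run and 2.35, 1.88 and 2.38 CPM in No gRNA, at least 15-fold higher. LINC00922, a long noncoding RNA, was at 0 in wild type and at 1.45, 1.03 and 1.03 CPM (at least 7.99-fold higher), and DTX4, a ubiquitin ligase of the Deltex family, was at 0.911 to 1.10 CPM (at least 6.98-fold). Wild type of run 2 held 0 to 0.0459 CPM of LINC00922 and 0 CPM of DTX4. A fitted fold change of such genes depends on the count that voom adds.

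Among the largest falls, PTX3, a pentraxin that marks microbes and that interleukin 1 induces, had the tightest values, 209.5, 212 and 209.7 CPM in wild type and 18.7, 19.4 and 19.6 CPM in No gRNA (log2 fold change -3.46 ± 0.06 SE, TREAT adjusted p = 1.32e-09), and 58.7 to 64.7 CPM in wild type of run 2. EPHA3, an ephrin receptor, held 29.5, 26.1 and 28.8 CPM and 4.39, 5.26 and 4.30 CPM (-2.61 ± 0.13, TREAT adjusted p = 1.19e-05), and KCTD16, a GABA-B receptor subunit, 24.3, 21.6 and 22.3 CPM and 3.84, 3.03 and 3.52 CPM (-2.72 ± 0.16, TREAT adjusted p = 6.51e-05). With EPHA3 at 29.3 to 32.4 CPM and KCTD16 at 8.87 to 10.6 CPM in wild type of run 2, these 3 genes were below both wild types. ACKR4, an atypical chemokine receptor, went from 5.01 to 5.40 CPM to 0.307 to 0.467 CPM (-3.62 ± 0.38, TREAT adjusted p = 0.00201), INHBA, the activin A subunit, from 2.30 to 3.08 CPM to 0.164 to 0.687 CPM (-3.17 ± 0.52, TREAT adjusted p = 0.0498), SHROOM2, an actin organiser, from 10.1 to 12.2 CPM to 0.974 to 2.80 CPM (-2.86 ± 0.28, TREAT adjusted p = 0.00265) and SHISA2 from 8.26 to 10.9 CPM to 1.40 to 1.76 CPM (-2.67 ± 0.20, TREAT adjusted p = 0.000491). Wild type of run 2 stood at 0.174 to 0.665, 0.0435 to 0.183, 0.0646 to 0.721 and 0.562 to 1.26 CPM of these, which overlaps No gRNA for ACKR4 and INHBA and lies below it for SHROOM2 and SHISA2. ADAMTS9-AS1 fell by 2.76 (TREAT adjusted p = 0.00994), and as an antisense gene counted without a stated strand its reads cannot be told from those of ADAMTS9. ABCG2, a drug efflux pump, fell from 21.8 to 23.5 CPM to 4.64 to 6.49 CPM (-2.0 ± 0.21, TREAT adjusted p = 0.0222), with 3.46 to 7.73 CPM in run 2.

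MDA-MB-231 gave a comparison with no shared library. There TREAT called 367 of 15721 genes higher (2.33%) and 199 lower (1.27%) in No gRNA, and the moderated test 26.2% higher and 27.6% lower. Of the 157 genes higher in SUM159, 132 were tested in MDA-MB-231, where 94 were higher and 6 lower by the moderated test and 29 were higher by TREAT, with a median log2 fold change of 1.11. Of the 74 genes lower in SUM159, 65 were tested, of which 35 were higher and 20 lower, with a median of 0.48. Interferon-stimulated genes were higher in 28 and lower in 3 of 49 cases (median 0.60), complement components in 9 and 2 of 13 (median 1.24), clock genes in 10 and none of 14 (median 1.24), and DNA replication and G1/S genes were lower in all 37 (median -1.33), as were 31 of 38 mitosis and G2/M genes with none higher (median -0.82). NF-kB targets and cytokines were higher in 25 of 26 with none lower (median 1.34), EGF ligands and receptors in 7 of 11 with none lower (median 0.98), and unfolded protein and ATF4 genes in 27 of 31 with 3 lower (median 1.42). Ribosomal protein genes were lower in 68 of 78 and higher in 3 (median -0.37). Heat shock chaperones were lower in 11 of 12 with none higher, HSP90AA1 from 3184 to 1235 CPM on average.

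The difference between the lines was tested over 24 libraries, where line, medium, puromycin dose and sequencing run coincide. The SUM159 effect in it was taken against wild type of run 1. TREAT called the SUM159 effect higher for 103 of 17182 genes (0.599%) and lower for 348 (2.03%). IL1A moved from 25.1 to 178 CPM in MDA-MB-231 (difference between the effects -5.35 on the log2 scale, TREAT adjusted p = 8.59e-18), CXCL8 from 596 to 1593 CPM (-3.87, TREAT adjusted p = 9.79e-16) and PTX3 from 179 to 438 CPM (-4.75, TREAT adjusted p = 3.82e-19). The ERK genes DUSP6 and EGR1 moved from 487 to 1296 and from 192 to 393 CPM (-2.89 and -3.39, TREAT adjusted p = 3.87e-12 and 6.08e-12). CHAC1 moved from 4.45 to 61.8 CPM (-5.41, TREAT adjusted p = 1.85e-14). With wild type of run 2 as the control, IL1A and CXCL8 were higher in SUM159 No gRNA too (log2 fold changes 1.72 and 1.23). PTX3, DUSP6, EGR1 and CHAC1 did not reverse against that control. IFIT1 averaged 27.2 CPM in MDA-MB-231 wild type and 25.8 CPM in No gRNA (4.89, TREAT adjusted p = 2.22e-10), and CCL5 was at 0.109 and 0.361 CPM (4.74, TREAT adjusted p = 6.18e-06). RSAD2 and OASL were called higher in both lines, with the larger change in SUM159 (3.66 and 2.71, TREAT adjusted p = 0.0267 and 1.73e-06). For ZNF10 the difference was 0.49 ± 0.35 (SE) and was not called (TREAT adjusted p = 1).

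**Figure D4:**
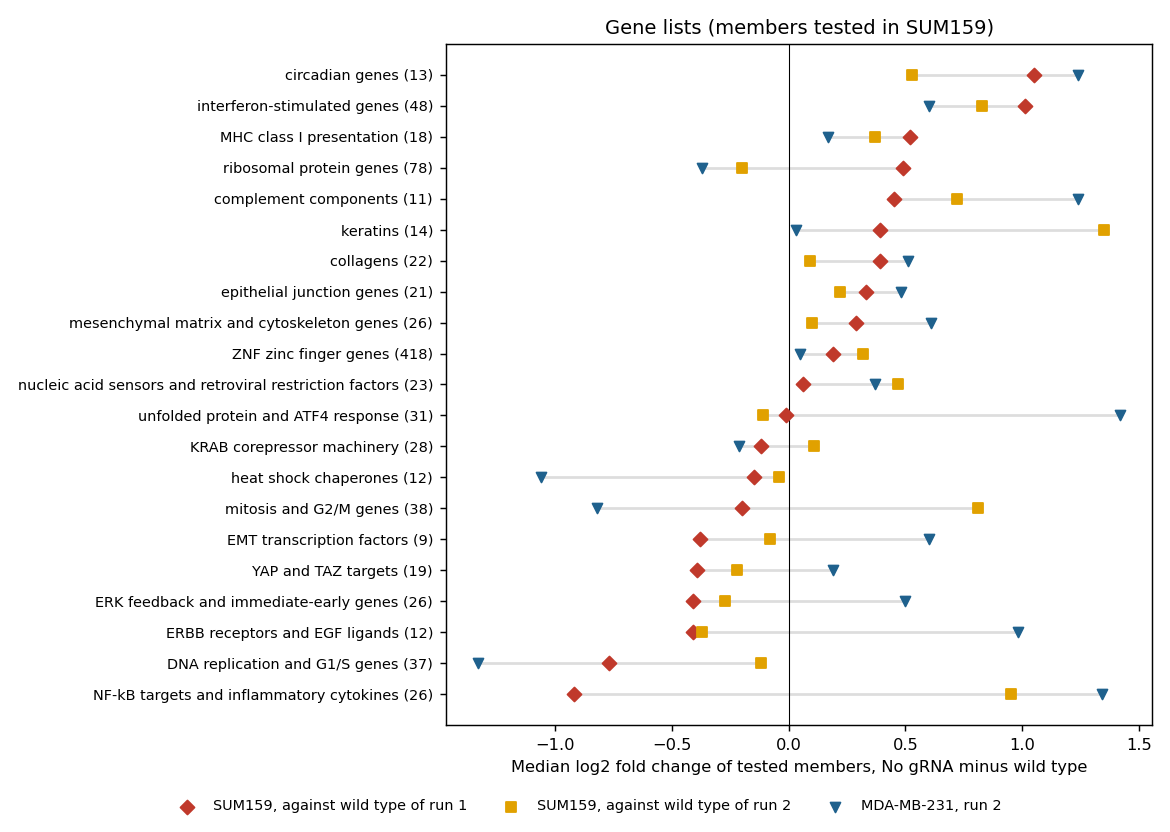
Median log2 fold change of No gRNA against wild type over the tested members of 21 gene lists, for SUM159 against wild type of run 1 (red), SUM159 against wild type of run 2 (yellow) and MDA-MB-231 (blue). The interferon-stimulated, complement and clock lists lie above 0 in all 3. So do the class I presentation, nucleic acid sensor, epithelial junction, mesenchymal matrix, collagen, keratin and ZNF lists. The NF-kB list lies at -0.92, 0.95 and 1.34. The DNA replication and G1/S list lies at -0.77, -0.12 and -1.33, near 0 against wild type of run 2.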

How the data were processed

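RNA-seq (single-end, 50 bp) had been run on SUM159 and MDA-MB-231 cells. The authors quantified reads with Salmon and summarised them per gene with tximport. The deposited values are estimated counts (length-scaled) on GRCh38, for 57165 genes in 27 libraries, and symbols were matched for 56347 of them. Counts were rounded to whole numbers for DESeq2 and edgeR only. CPM were scaled by TMM over all libraries. With limma 3.58.1 (edgeR 4.0.16, R 4.3.3), voom and TREAT were fitted over the 12 SUM159 libraries of run 1 after a minimum count of 10, and likewise for MDA-MB-231. Adjusted p-values are Benjamini-Hochberg over all genes tested. The SE is that of the log2 fold change. It and limma's p-values rest on the spread within groups of 3 libraries, pooled over all groups of the fit and moderated across genes. The scripts were tested on simulated data. Replicate numbers did not pair the samples. Genes were named by rule: the 10 largest TREAT calls in each direction and the leading members of each list. The members and lists were chosen with earlier results of these data known. Alternatives were another scaling, filter, tool, fit or wild type, and leaving out each library. Some genes that the rule names are not reported here.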

Additional observations from a re-analysis of the deposited data

Results flagged for a closer look

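For 36 of 91 named genes the effect of the vector differed between SUM159 and MDA-MB-231 by limma's TREAT over 24 libraries. Over all 17182 genes tested, the SUM159 effect was called higher for 0.599% and lower for 2.03%. The named genes were chosen mainly by the size of their change in SUM159, which enters this difference. A larger share among them was therefore built in and says nothing of these genes as a set. Each value is the SUM159 effect minus the MDA-MB-231 effect on the log2 scale, followed by the TREAT adjusted p. Line, medium, sequencing run and puromycin dose cannot be told apart in it. The SUM159 effect was taken against wild type of run 1 only. Some of these genes, IL1A, CXCL8, CCL20 and INHBA among them, reversed in SUM159 against wild type of run 2, as given below.

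The SUM159 effect was the higher one for OLFM1 (6.54, 4.25e-05), CCL5 (4.74, 6.18e-06), RSAD2 (3.66, 0.0267), COL5A3 (5.54, 0.0241), ORM1 (4.67, 0.00285) and DTX4 (4.09, 0.0403). The same held for IFIT1 (4.89, 2.22e-10), HERC5 (3.88, 6.44e-07), OASL (2.71, 1.73e-06), LCN2 (1.78, 0.0312), PSMB8 (1.66, 0.00224), CCNE1 (2.03, 0.00232) and HMOX1 (1.96, 5.06e-05). It was the lower one for PTX3 (-4.75, 3.82e-19), INHBA (-5.56, 4.79e-07), ADAMTS9-AS1 (-3.85, 0.0232), KCTD16 (-6.19, 0.000437), SHISA2 (-2.91, 5.15e-07), CCL20 (-5.48, 3.87e-12), EPHA3 (-3.34, 4.67e-05) and HBEGF (-3.89, 4.96e-14). Lower too were IL1A (-5.35, 8.59e-18), CXCL8 (-3.87, 9.79e-16), PTGS2 (-5.41, 1.03e-11), EGR1 (-3.39, 6.08e-12), PHLDA1 (-3.37, 4.44e-16), DUSP6 (-2.89, 3.87e-12), EPGN (-6.01, 0.0047) and EREG (-2.88, 2.79e-12). Lower too were NRG1 (-3.06, 1.21e-05), F3 (-2.27, 1.03e-08), CCN2 (-2.04, 4.77e-07), CHAC1 (-5.41, 1.85e-14), STC2 (-4.16, 0.000397), SESN2 (-4.21, 1.99e-14) and CD274 (-3.01, 1.5e-06). In MDA-MB-231 both groups averaged under 1 CPM for COL5A3, OLFM1, EPGN, KCTD16, ORM1, ADAMTS9-AS1 and CCL5, so the difference there rests on the SUM159 values and on the count that voom adds.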

How the results depend on the processing

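TREAT called 231 genes in SUM159. The number called was 1417 by the moderated test with a fold beyond 1 on the log2 scale, 2783 by TREAT at a fold of 1.2, 363 by edgeR's threshold test, 406 with wild type of run 2 as the control and 74 with wild type of both runs. Leaving out 1 library gave 147 to 180 calls, with 147, 150 and 154 without wild type replicate 1, 2 and 3. The moderated test called 6498 genes, and called 1947 against wild type of both runs and 5372 to 5701 with 1 library left out. In MDA-MB-231 leaving out 1 library gave 428 to 488 calls beside 566 with all, and for the difference between the lines 390 to 429 beside 451. These are totals of separate fits, and their overlap was counted only for wild type of run 2 as the control. Of the 157 genes higher in the main fit, 64 were higher there by TREAT and 102 by the moderated test, and 22 were lower by the moderated test. Of the 74 lower in the main fit, 4 were lower there by TREAT and 27 by the moderated test, and 32 were higher by the moderated test. With a replicate block 226 genes were called, though replicate numbers did not pair the samples (correlations of same-numbered deviations 0.035, 0.055 and -0.012).

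With wild type of run 2 as the control, 29 of 91 named genes reversed, with log2 fold changes of ACKR4 0.25, INHBA 1.03, SHROOM2 2.28, SHISA2 0.98, CCL20 2.75, OAS3 0.49, GBP3 0.63, CGAS 0.68, IL1A 1.72, CXCL8 1.23, PTGS2 0.60, PHLDA1 0.20, EREG 0.16, TYMS 0.86, RRM2 0.26, CCNE1 -0.44, FOXM1 0.94, MKI67 0.96, PER3 -0.02, RPL13A -0.19, SESN2 0.01, HMOX1 -1.45, SNAI2 0.84, ZEB2 0.11, SNAI1 -0.34, COL6A2 -0.85, ABCG2 0.19, ZNF385B -0.39, ZNF862 -0.02. Another 8 lost their call. With wild type of both runs 39 lost their call, IL1A and CXCL8 among them (-0.43 and -0.61), 50 kept direction and side of the threshold, and these 2 reversed: FOXM1 0.18, MKI67 0.21. In No gRNA, HBEGF lay below and TOP2A above every wild type library of both runs, yet each lost its call in that fit, which had no term for run. The causes were not tested. The counts limit genes whose wild type libraries hold at most 3 counts, for which the fold is a lower bound.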

Other observations

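SCN1A, a voltage-gated sodium channel subunit, was chosen after its values were seen, because its fitted change was the most negative of all genes and TREAT did not call it. It held 17.6, 15.6 and 19.2 CPM in wild type and 0.389, 0 and 0 CPM in No gRNA (TREAT adjusted p = 0.189, limma's moderated adjusted p = 0.0107). Its level also differed between libraries of the same group, at 0.0298, 19.5 and 0.0340 CPM in All gRNA and at 23.7, 0 and 0 CPM in wild type of run 2.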
